A study of Homo sapiens with 18 samples.

Results

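The genes described here are 7 members of the ATP-binding cassette (ABC) family that move lipids, drugs or signalling molecules across membranes: ABCA1, ABCG1, ABCG2, ABCC1, ABCC4, ABCC5 and ABCD3. They were taken by gene symbol from the platform annotation, which gives them 20 of the 54675 probe sets on the array and 7 of the 19775 genes it names with a single symbol. The arrays held total RNA of LNCaP, a human prostate cancer cell line that responds to androgen, and of LNCaP-abl, a subline of it that grows in androgen-depleted medium. LNCaP-abl received siRNA against TRIM24 or a control siRNA, each with ethanol vehicle. LNCaP received siRNA against TRIM24 or a control siRNA, each with 10 nM dihydrotestosterone (DHT) or with vehicle. The labels give 48 h for the transfection and 24 h for the hormone or vehicle, and 48 h of growth in hormone-stripped serum under a protocol written for LNCaP. Each of the 6 groups had 3 arrays. TRIM24 binds modified histones and nuclear receptors and is also a ubiquitin ligase, and DHT is the androgen that activates the androgen receptor most strongly.

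ABC transporters use the energy of ATP to carry substrates through a membrane. ABCA1 passes cholesterol and phospholipid from the cell to lipid-poor apolipoprotein A-I, ABCG1 passes cholesterol on to high-density lipoprotein, and the genes of both are induced by the liver X receptors when oxysterols accumulate. ABCG2, the breast cancer resistance protein, exports drugs, urate and porphyrins, and ABCC1 exports glutathione conjugates, leukotriene C4 and drugs. ABCC4 and ABCC5 export cyclic nucleotides, and ABCC4 also exports prostaglandins and steroid conjugates. ABCC4 is abundant in prostate epithelium. ABCD3 carries long-chain and branched-chain fatty acids and bile acid precursors into the peroxisome.

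All values are log2 signals as deposited, where a difference of 1 is a doubling. Array medians lay between 5.83 and 5.93, and arrays of the same group correlated at 0.996 to 0.998 over all probe sets, which are not independent. TRIM24 itself fell to between 22.7% and 25.1% of its control level in the 3 knockdowns. The luminal prostate markers HOXB13, KRT8, KRT18, TMPRSS2 and FOLH1 were above the median of the table, 5.88, on every array, and KLK3, the androgen-driven gene of prostate-specific antigen, ranged between 5.35 and 14.16. The leukocyte markers PTPRC, CD14, CD163 and CSF1R did not reach that median on any array. The basal markers KRT5 and KRT14, the fibroblast markers COL1A2 and LUM and the endothelial marker CDH5 did not pass the low-value filter. The fibroblast markers COL1A1, COL3A1 and DCN and the endothelial markers PECAM1 and VWF did pass it. Whether replicates were separate cultures is not said in the labels, and the p-values therefore reflect array-to-array spread that may be technical. In RNA from whole cultures, fewer cells with a transcript and less transcript per cell cannot be told apart.

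Each gene was read from its brightest probe set, and all 7 were among the 13607 genes tested because at least 3 of their 18 values reached 5.88. Of the 20 probe sets 18 reached it, and the others were a dim pair assigned to ABCA1. The distance between the highest and the lowest group mean was 5.55 for ABCA1, 3.64 for ABCC4, 3.52 for ABCG2, 1.78 for ABCC1, 1.67 for ABCG1, 1.32 for ABCD3 and 0.62 for ABCC5, against a median of 0.51 over all genes tested. ABCA1 was brightest in LNCaP-abl with TRIM24 siRNA and dimmest in LNCaP with control siRNA and DHT, and no neighbouring pair of its 6 groups overlapped. ABCC4 and ABCC1 were brightest in LNCaP with TRIM24 siRNA and DHT, ABCG2, ABCG1 and ABCC5 in LNCaP with control siRNA and vehicle, and ABCD3 in LNCaP-abl. For ABCC5, every neighbouring pair of groups overlapped except the brightest and the one after it.

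**Figure D1:**
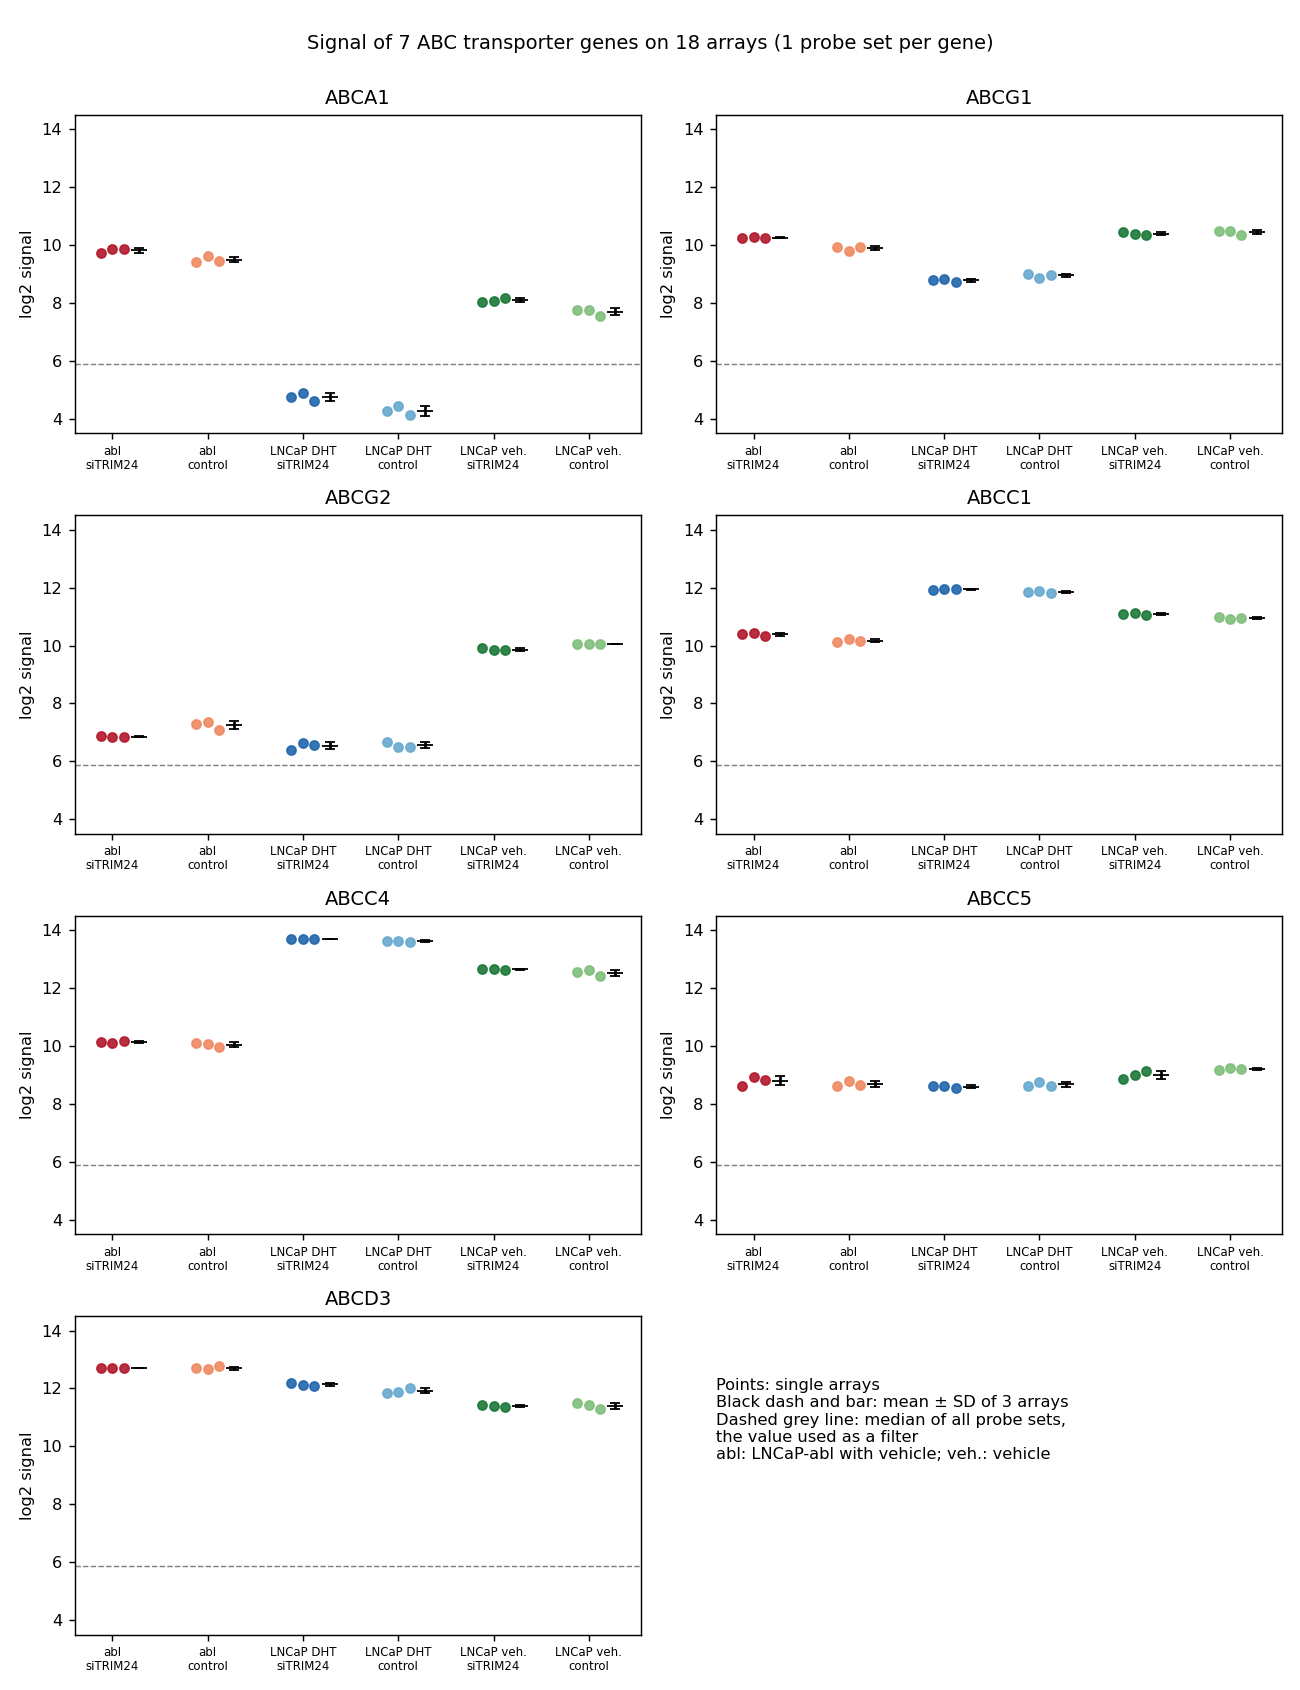
Log2 signal of the 7 genes on each of the 18 arrays, with the mean and SD of each group of 3 as a black dash and bar. The dashed line is the table median of 5.88. ABCA1 lies below it on all 6 DHT arrays, and ABCC4 stays above 9.9 on every array.

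The first comparison asked what DHT did to the 7 genes in LNCaP with control siRNA. All 7 were called, in a comparison that called 45.7% of the genes tested. The sterol exporters ABCA1 and ABCG1, the drug exporter ABCG2 and the cyclic nucleotide exporter ABCC5 fell, while ABCC4, ABCC1 and the peroxisomal ABCD3 rose. Over all genes tested, 26.4% fell and 19.4% rose. By size of change, ABCG2 ranked 18 among the 13607 genes. ABCA1 is given no rank because its signal with DHT lay below the table median.

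ABCA1 lost most of its signal under DHT. It read 4.26, 4.44 and 4.12 on the DHT arrays, against 7.77, 7.77 and 7.57 on the vehicle arrays. The groups were far apart, and every DHT array lay below the table median, a range in which array values are compressed. The difference was -3.43 ± 0.09 (SE, 3 arrays per group), a level of 9.28% of that with vehicle (limma, Benjamini-Hochberg adjusted p = 2.2e-14), and the true fall may be larger. The other bright probe set of ABCA1 fell by 3.72 ± 0.13.

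The RefSeq window around the start of ABCA1 is shown because ABCA1 had the widest range of the 7 genes and is a known liver X receptor target. It covers chr9:104928106-104928405 (GRCh38.p14, minus strand, 5′ to 3′), from 250 bases before the annotated start to 50 bases from it on. The longer run of capitals matches the response element of these receptors, AGGTCA repeated after any 4 bases and searched on both strands with up to 3 mismatches. It begins at position -69 (the start base is 0), lies on the opposite strand and has 2 mismatches. The short run is an E-box, CACGTG, at position -147.
ABCA1: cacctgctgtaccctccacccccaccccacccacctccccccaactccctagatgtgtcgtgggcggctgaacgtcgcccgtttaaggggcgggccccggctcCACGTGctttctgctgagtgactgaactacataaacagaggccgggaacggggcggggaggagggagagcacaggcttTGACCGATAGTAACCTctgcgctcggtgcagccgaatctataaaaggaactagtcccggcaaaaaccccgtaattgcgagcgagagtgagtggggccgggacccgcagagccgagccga
Matches of the first kind were found in 18.7% of the 35093 RefSeq windows of this length, and the E-box in 7.26%. These matches describe letters and are not evidence of binding.

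ABCG1, which works after ABCA1 in cholesterol export, fell by less. It read 9.0, 8.88 and 8.98 with DHT, against 10.5, 10.5 and 10.36 with vehicle. The groups did not overlap, and both stayed well above the table median. The difference was -1.50 ± 0.05, a level of 35.5% of that with vehicle (limma adjusted p = 6.79e-13). Its other 3 probe sets differed by -1.36 to -1.12.

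ABCG2 also lost most of its signal and stayed above the table median. It read 6.67, 6.51 and 6.51 with DHT, against 10.05, 10.07 and 10.06 with vehicle. The vehicle arrays agreed within 0.02, and the DHT arrays were more than 3 units lower. The difference was -3.50 ± 0.07, a level of 8.86% of that with vehicle (limma adjusted p = 6.34e-16). ABCG2 has a single probe set on the array, so no second reading was at hand.

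The RefSeq table holds 5 windows for ABCG2, and 1 of them is shown because ABCG2 and ABCA1, the members with the largest falls, both have an E-box there. It covers chr4:88158810-88159109 (GRCh38.p14, minus strand, 5′ to 3′), and the capitals mark CACGTG at position -171.
ABCG2: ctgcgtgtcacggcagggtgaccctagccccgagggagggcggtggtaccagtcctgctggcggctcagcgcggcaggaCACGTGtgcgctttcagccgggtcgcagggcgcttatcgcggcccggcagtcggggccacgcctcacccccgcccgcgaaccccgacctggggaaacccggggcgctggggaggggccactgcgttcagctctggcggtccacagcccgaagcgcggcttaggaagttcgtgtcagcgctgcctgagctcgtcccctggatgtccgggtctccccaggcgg
A second, overlapping ABCG2 window holds the same E-box and the other 3 hold none. The window of ABCC5, which also fell with DHT, holds no E-box, and neither do those of ABCC4 and ABCD3, which rose. ABCG1, which fell too, has no window here. A link between the E-box and the response to DHT was not tested. The androgen receptor half-site AGAACA, present in 14.8% of all windows on either strand, was in none of the 9 windows of the 5 members found in the table (ABCA1, ABCG2, ABCC4, ABCC5 and ABCD3). That says nothing about the receptor elsewhere in these genes.

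ABCC4 was bright before DHT and brighter with it. It read 13.62, 13.64 and 13.58 with DHT, against 12.56, 12.61 and 12.41 with vehicle. The arrays of each group lay close together and the groups did not overlap. The difference was 1.09 ± 0.05, or 2.13-fold (limma adjusted p = 2.72e-11). Array maxima were 14.73 to 14.83, so the ABCC4 signal with DHT lay near the upper end of the scale, and its 3 dimmer probe sets rose by 1.66 to 1.94.

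The window at the start of ABCC4 is shown as that of the member that rose most under DHT. It covers chr13:95301402-95301701 (GRCh38.p14, minus strand, 5′ to 3′), and the capitals mark the core of an antioxidant response element, TGAC followed after any 3 bases by GC, read here on the opposite strand at position -149.
ABCC4: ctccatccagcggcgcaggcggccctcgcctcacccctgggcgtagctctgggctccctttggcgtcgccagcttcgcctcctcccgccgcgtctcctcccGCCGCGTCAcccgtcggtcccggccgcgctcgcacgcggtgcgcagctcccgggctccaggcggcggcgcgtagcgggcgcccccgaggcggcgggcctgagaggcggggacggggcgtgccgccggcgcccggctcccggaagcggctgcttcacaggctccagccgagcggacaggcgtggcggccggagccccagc
This core was found in 13.4% of all windows. It was also in 1 of the 5 windows of ABCG2, which fell with DHT, and in none of those of ABCA1, ABCC5 and ABCD3. A link between this core and the response to DHT was not tested. Neither the liver X receptor repeat nor the E-box was found in the ABCC4 window.

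ABCC1, the multidrug resistance protein that exports glutathione conjugates, rose as well. It read 11.86, 11.89 and 11.83 with DHT, against 10.97, 10.92 and 10.96 with vehicle. The spread within each group was under 0.1 and the groups lay almost 1 unit apart. The difference was 0.91 ± 0.04, or 1.88-fold (limma adjusted p = 4.6e-12), and its second probe set rose by 0.96 ± 0.06.

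ABCD3 and ABCC5 changed least. ABCD3 read 11.85, 11.89 and 12.01 with DHT, against 11.49, 11.43 and 11.28 with vehicle, a difference of 0.51 ± 0.05 (limma adjusted p = 5.41e-07). ABCC5 read 8.63, 8.76 and 8.62 with DHT, against 9.18, 9.23 and 9.21 with vehicle, a difference of -0.54 ± 0.08 (limma adjusted p = 2.87e-05). Neither gene's groups overlapped. A second ABCC5 probe set also fell by 0.54 ± 0.07, whereas the third moved by -0.03 ± 0.06 and was not called (adjusted p = 0.716 over all probe sets).

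With TRIM24 siRNA, DHT moved all 7 genes in the same directions, and all 7 were again called, in a comparison that called 43.5% of the genes, 16.9% higher and 26.6% lower. The arrays are other ones than those with control siRNA. ABCA1 read 4.76, 4.91 and 4.63 with DHT, against 8.04, 8.08 and 8.18 with vehicle, a difference of -3.33 ± 0.09. ABCG2 read 6.41, 6.64 and 6.57 with DHT, against 9.92, 9.84 and 9.83 with vehicle, a difference of -3.32 ± 0.07. Both genes again separated completely by hormone. The differences were -1.61 ± 0.05 for ABCG1, -0.40 ± 0.08 for ABCC5, 1.04 ± 0.05 for ABCC4, 0.86 ± 0.04 for ABCC1 and 0.75 ± 0.05 for ABCD3, and limma adjusted p-values of the 7 lay between 1.01e-15 and 0.00051.

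**Figure D2:**
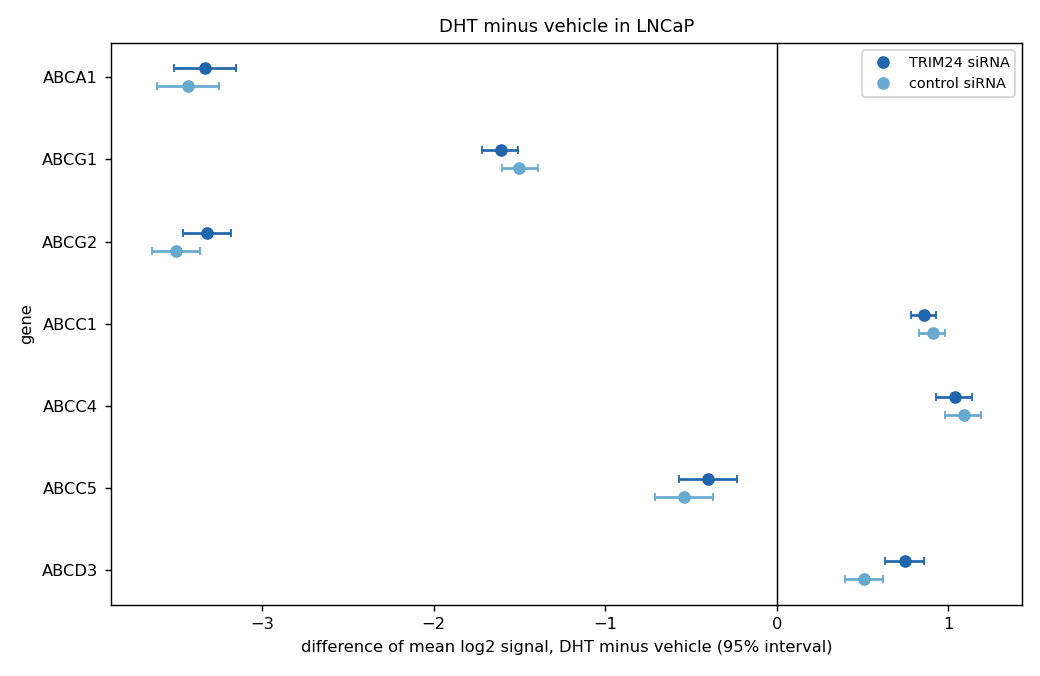
Difference of mean log2 signal, DHT minus vehicle, in LNCaP with TRIM24 siRNA (dark, upper point of each pair) and control siRNA (light, lower point), with 95% intervals from the fit. ABCA1 and ABCG2 sit below -3 with either siRNA, and ABCC4, ABCC1 and ABCD3 lie right of 0.

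No member's response to DHT was called different between the siRNAs by limma, in a test of the interaction that called 11.1% of the genes (5.38% positive and 5.7% negative), and 1 of the 7 had an unadjusted p under 0.05. That gene was ABCD3, whose rise with DHT was larger with TRIM24 siRNA than with control siRNA by 0.23 ± 0.07 (unadjusted p = 0.00629, adjusted p = 0.0537). Its dimmer probe set gave 0.39 ± 0.08 (adjusted p = 0.0096 over all probe sets). The interval of this interaction was -0.02 to 0.37 for ABCG2. For ABCA1 the brightest probe set gave 0.10 ± 0.12 and the other bright one -0.16 ± 0.18, and no bound is read from them because both DHT groups of the brightest lay below the table median. ABCD3 was called under 6 of the alternative settings and without the third control siRNA array with vehicle (0.293) or with DHT (0.279).

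LNCaP-abl was next compared with LNCaP, both with control siRNA and vehicle. All 7 genes were called, in a comparison that called 63.8% of the genes, with 29.1% higher and 34.6% lower. ABCA1 and ABCD3 were higher in LNCaP-abl, and ABCG2, ABCC4, ABCC1, ABCG1 and ABCC5 were lower. The LNCaP arrays are the vehicle arrays of the first DHT comparison, so both comparisons share them and their agreement or disagreement across genes is not a separate result.

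ABCA1 read 9.42, 9.61 and 9.47 in LNCaP-abl, against 7.77, 7.77 and 7.57 in LNCaP. The difference was 1.80 ± 0.09, or 3.48-fold higher (limma adjusted p = 2.03e-11), and the other bright probe set gave 2.21 ± 0.13. The other sterol exporter went the opposite way. ABCG1 read 9.93, 9.81 and 9.95 in LNCaP-abl, against 10.5, 10.5 and 10.36 in LNCaP, a difference of -0.56 ± 0.05 (limma adjusted p = 5.93e-08).

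The drug exporter ABCG2 read 7.29, 7.36 and 7.1 in LNCaP-abl, against 10.05, 10.07 and 10.06 in LNCaP. The lines did not overlap, and the difference was -2.81 ± 0.07, a level of 14.2% of that in LNCaP (limma adjusted p = 2.22e-15). In LNCaP-abl, ABCC4 read 10.11, 10.07 and 9.95, against 12.56, 12.61 and 12.41 in LNCaP. That was a difference of -2.48 ± 0.05, or 17.9% of the LNCaP level (limma adjusted p = 3.28e-16), and the 3 dimmer probe sets of ABCC4 differed by -3.07 to -1.74. Of these, 2 averaged 4.56 and 4.01 in LNCaP-abl, below the table median. ABCC1 was lower in LNCaP-abl as well, with a difference of -0.78 ± 0.04 (limma adjusted p = 9.65e-12).

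ABCD3 read 12.69, 12.66 and 12.76 in LNCaP-abl, against 11.49, 11.43 and 11.28 in LNCaP, a difference of 1.30 ± 0.05 (limma adjusted p = 1.8e-12). Its second probe set gave 1.64 ± 0.06. ABCC5 read 8.6, 8.79 and 8.65 in LNCaP-abl, against 9.18, 9.23 and 9.21 in LNCaP, a difference of -0.53 ± 0.08 (limma adjusted p = 1.82e-05). The other ABCC5 probe sets gave -0.17 ± 0.07 and -0.15 ± 0.06, so all 3 were lower but by unequal amounts.

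**Figure D3:**
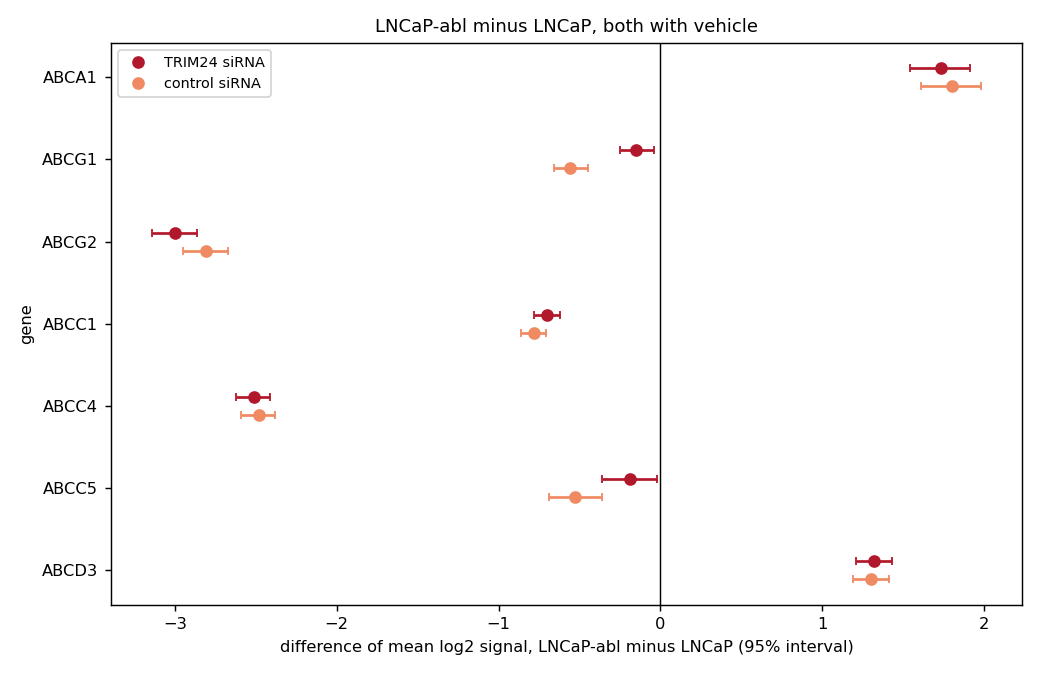
Difference of mean log2 signal, LNCaP-abl minus LNCaP, both with vehicle, with TRIM24 siRNA (dark, upper point of each pair) and control siRNA (light, lower point), with 95% intervals. ABCA1 and ABCD3 lie right of 0 with either siRNA, ABCG2 and ABCC4 lie below -2, and the pairs of ABCG1 and ABCC5 lie apart.

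With TRIM24 siRNA in both lines, all 7 genes were called in the same directions, in a comparison that called 69.8% of the genes, 29.6% higher and 40.2% lower. The differences were 1.73 ± 0.09 for ABCA1, 1.32 ± 0.05 for ABCD3, -2.51 ± 0.05 for ABCC4 and -0.70 ± 0.04 for ABCC1, and ABCG2 was at 12.5% of its LNCaP level. ABCG1 differed by -0.15 ± 0.05 (limma adjusted p = 0.0167) and ABCC5 by -0.19 ± 0.08 (limma adjusted p = 0.04), and the ABCC5 arrays of the lines overlapped. From the brightest probe sets, neither call held up to the loss of an array. For ABCG1 it was lost without the first TRIM24 siRNA array of either line (-0.113 without that of LNCaP, adjusted p = 0.0834), and for ABCC5 without the second or the third of LNCaP or the first or the third of LNCaP-abl, with values of -0.211 to -0.103. Both calls were also lost after quantile normalization, at -0.097 for ABCG1 (adjusted p = 0.0804) and -0.0791 for ABCC5 (adjusted p = 0.405). That of ABCC5 was lost as well without a filter on low values (adjusted p = 0.0563) and with only the groups compared (adjusted p = 0.117). The dimmer probe sets of both genes were also lower in LNCaP-abl. Those of ABCC5 gave -0.40 ± 0.06 (adjusted p = 1.15e-05 over all probe sets) and -0.27 ± 0.07 (adjusted p = 0.00223). Those of ABCG1 gave -0.60 ± 0.06 (adjusted p = 1.05e-07), -0.29 ± 0.09 (adjusted p = 0.0111) and -0.10 ± 0.06, the last not called (adjusted p = 0.126).

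The next question was what TRIM24 siRNA did in each setting. In LNCaP-abl it was followed by higher ABCA1, ABCG1 and ABCC1 and lower ABCG2. In LNCaP with DHT, ABCA1 and ABCD3 were higher and ABCG1 lower, and in LNCaP with vehicle ABCA1 and ABCC1 were higher and ABCG2 and ABCC5 lower. These were 4 of 7 genes called in LNCaP-abl, 3 of 7 with DHT and 4 of 7 with vehicle, in comparisons that called 45.6%, 40.2% and 38.5% of all genes. The members' counts are near those shares. In LNCaP-abl 36.7% of all calls were rises, against 26.2% after median centring and 49.2% after quantile normalization. All differences were under 0.6, much smaller than most of those with DHT or between the lines.

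ABCA1 was the member called higher in all 3 settings. In LNCaP-abl it read 9.73, 9.88 and 9.87 with TRIM24 siRNA, against 9.42, 9.61 and 9.47 with control siRNA, a difference of 0.33 ± 0.09 (limma adjusted p = 0.00604). In LNCaP with DHT it read 4.76, 4.91 and 4.63 with TRIM24 siRNA, against 4.26, 4.44 and 4.12, a difference of 0.50 ± 0.09 between groups that both lay below the table median (limma adjusted p = 0.000234). With vehicle it read 8.04, 8.08 and 8.18 with TRIM24 siRNA, against 7.77, 7.77 and 7.57, a difference of 0.40 ± 0.09 (limma adjusted p = 0.0017). No pair of groups overlapped for this probe set, so ABCA1 was higher on 9 of 9 knockdown arrays than on the control arrays of the same setting. Its other bright probe set gave 0.45, 0.34 and 0.50 in the same order of settings, each called over all probe sets. With DHT the arrays of that probe set overlapped, at 3.65, 3.97 and 4.32 with TRIM24 siRNA, against 3.66, 3.82 and 3.44. All of them lay below the table median (limma adjusted p = 0.0427 over all probe sets).

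From its brightest probe set, ABCG1 did not follow ABCA1 in LNCaP. In LNCaP-abl it read 10.23, 10.27 and 10.26 with TRIM24 siRNA, against 9.93, 9.81 and 9.95 with control siRNA, a difference of 0.36 ± 0.05 (limma adjusted p = 2.89e-05). With DHT in LNCaP it differed by -0.17 ± 0.05 (limma adjusted p = 0.0115, and 0.055 without the third TRIM24 siRNA array), and with vehicle the difference was -0.05 ± 0.05 (limma adjusted p = 0.447). The call with DHT was also lost with the mean of the probe sets (-0.096, limma adjusted p = 0.0519). Of the dimmer probe sets, 1 was called lower with DHT, at -0.19 ± 0.06 (limma adjusted p = 0.0156 over all probe sets). The others gave 0.06 ± 0.06 and, below the table median, -0.08 ± 0.09, neither called. The change in LNCaP-abl exceeded that in LNCaP with vehicle by 0.41 ± 0.07 (limma adjusted p = 0.000604), in a test of the interaction with the cell line that called 28.5% of the genes, 8.58% positive and 19.9% negative. Of all calls in that test 30.1% were positive, against 18.2% after median centring and 47.4% after quantile normalization, and ABCG1 was called under both. The other ABCG1 probe sets gave interactions of 0.37 ± 0.08, 0.21 ± 0.08 and 0.20 ± 0.13, of which the first was called over all probe sets, and in LNCaP with vehicle their knockdown differences were -0.17 ± 0.06, 0.31 ± 0.06 and 0.11 ± 0.09 in the same order, the first called lower and the second called higher.

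ABCG2 was lower after TRIM24 siRNA in LNCaP-abl, where it read 6.89, 6.83 and 6.85, against 7.29, 7.36 and 7.1 with control siRNA. The difference was -0.39 ± 0.07 (limma adjusted p = 0.000149) with no overlap. With vehicle in LNCaP it read 9.92, 9.84 and 9.83, against 10.05, 10.07 and 10.06, a difference of -0.20 ± 0.07 (limma adjusted p = 0.0248). With DHT the difference was -0.02 ± 0.07 (limma adjusted p = 0.815). The call with vehicle was lost in 5 of 6 omissions of a single array, all but that of the first TRIM24 siRNA array, with adjusted p up to 0.0762.

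ABCC1 was higher by 0.23 ± 0.04 in LNCaP-abl and by 0.14 ± 0.04 in LNCaP with vehicle, and the difference with DHT was 0.09 ± 0.04 (limma adjusted p = 0.0582). With DHT it was called with the stricter filter (adjusted p = 0.039), the mean of the probe sets (adjusted p = 0.0409) and the intensity trend (adjusted p = 0.0273). Array weights (adjusted p = 0.0286) and the replicate block (adjusted p = 0.049) also gave a call there. ABCC4 was called in none of the settings from its brightest probe set, with differences of 0.09 ± 0.05, 0.07 ± 0.05 and 0.12 ± 0.05 in LNCaP-abl, LNCaP with DHT and LNCaP with vehicle. That probe set lay near the upper end of the scale in LNCaP with DHT, and 2 of the other 3 were called higher in LNCaP-abl, by 0.23 ± 0.06 (adjusted p = 0.00468) and 0.25 ± 0.09 (adjusted p = 0.0419 over all probe sets). In LNCaP-abl these 2 averaged 4.79 and 4.26 with TRIM24 siRNA, against 4.56 and 4.01 with control siRNA, all below the table median. ABCC4 was also called there with the mean of the probe sets, which includes these 2 (0.166, adjusted p = 0.00722). After quantile normalization it was called there too (0.147, adjusted p = 0.0271). In LNCaP with vehicle it was called with the stricter filter (adjusted p = 0.0475), with the intensity trend (adjusted p = 0.0238) and without the second control siRNA array (0.162, adjusted p = 0.024). ABCD3 read 12.19, 12.13 and 12.1 with TRIM24 siRNA and DHT, against 11.85, 11.89 and 12.01 with control siRNA and DHT, a difference of 0.23 ± 0.05 (limma adjusted p = 0.00219). In the other settings ABCD3 differed by 0.01 ± 0.05 and by less than 0.01. Its second probe set was called lower in LNCaP with vehicle, at -0.19 ± 0.06 (adjusted p = 0.019 over all probe sets), and differed by -0.12 ± 0.06 in LNCaP-abl (adjusted p = 0.101).

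ABCC5 was lower in LNCaP with vehicle, at -0.21 ± 0.08 (limma adjusted p = 0.0403), a call lost in 5 of 6 omissions, all but that of the third TRIM24 siRNA array. The other 2 probe sets gave -0.01 ± 0.07 and 0.07 ± 0.06 there, neither called, and the mean of the 3 gave -0.0508 (adjusted p = 0.442). With DHT in LNCaP the brightest probe set gave -0.08 ± 0.08 (limma adjusted p = 0.493). The other 2 gave 0.21 ± 0.07, called higher (limma adjusted p = 0.0206 over all probe sets), and 0.06 ± 0.06, not called. In LNCaP-abl the brightest ABCC5 probe set differed by 0.12 ± 0.08 and was not called. It was called higher there without the first TRIM24 siRNA array (0.21) and after quantile normalization (0.208, adjusted p = 0.05 after rounding). Of the other probe sets, 1 was called lower there, at -0.17 ± 0.06 (adjusted p = 0.0216 over all probe sets), and the other gave -0.10 ± 0.07. For the brightest probe set, the difference between the effects in LNCaP-abl and in LNCaP with vehicle was called, at 0.34 ± 0.11 (limma adjusted p = 0.0329). That call was lost in 8 of 12 omissions of a single array. Its probe sets did not agree on that either, since the other 2 gave -0.24 ± 0.08 and -0.10 ± 0.10, and averaging the 3 gave a value next to 0. From the brightest probe sets, no interaction with the cell line was called for the other 5 genes on all arrays. That of ABCG2 was called without the third control siRNA array of LNCaP-abl (-0.267), against -0.19 ± 0.09 on all arrays. For ABCC4, 1 dimmer probe set was called, at 0.26 ± 0.08 (limma adjusted p = 0.0308 over all probe sets). Both LNCaP-abl groups of that probe set lay below the table median.

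**Figure D4:**
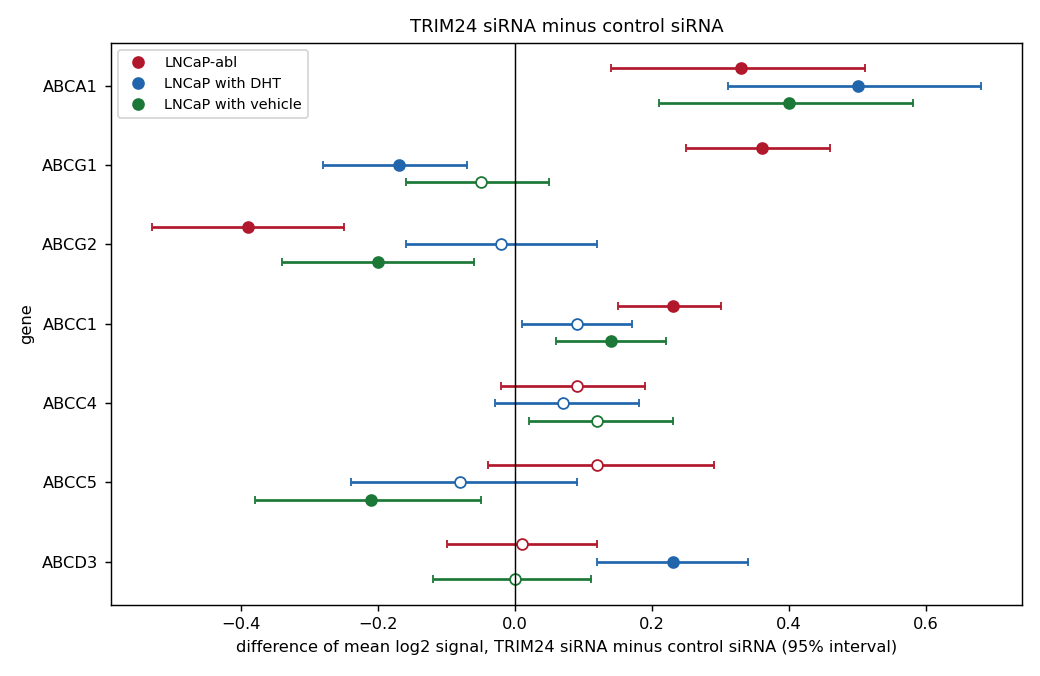
Difference of mean log2 signal, TRIM24 siRNA minus control siRNA, in LNCaP-abl, LNCaP with DHT and LNCaP with vehicle, with 95% intervals. Filled points were called at an adjusted p under 0.05 and open points were not. ABCA1 is filled and right of 0 in all 3 settings, and ABCG1 is right of 0 in LNCaP-abl and left of it in LNCaP with DHT.

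The siRNA groups also differed in how evenly transcripts were represented. The 3′ minus 5′ signal of the GAPDH control probe sets averaged 0.64 ± 0.02 with TRIM24 siRNA and 0.56 ± 0.01 with control siRNA in LNCaP-abl (SD, 3 arrays each). It averaged 0.63 ± 0.01 with TRIM24 siRNA and 0.56 ± 0.01 with control siRNA in LNCaP with DHT, and 0.59 ± 0.02 with TRIM24 siRNA and 0.52 ± 0.03 with control siRNA in LNCaP with vehicle. The same difference for the ACTB control probe sets averaged 1.99 ± 0.09 with TRIM24 siRNA and 1.87 ± 0.09 with control siRNA in LNCaP-abl. It averaged 2.19 ± 0.07 with TRIM24 siRNA and 1.85 ± 0.09 with control siRNA in LNCaP with DHT, and 2.05 ± 0.07 with TRIM24 siRNA and 1.87 ± 0.06 with control siRNA in LNCaP with vehicle. With the mean of the GAPDH and ACTB differences as a covariate, the calls of ABCA1 in all 3 settings, of ABCC1 in LNCaP-abl and in LNCaP with vehicle, and of ABCG1 and ABCG2 in LNCaP-abl were kept. The calls of ABCG2 and ABCC5 with vehicle and of ABCG1 and ABCD3 with DHT were not. Of these differences, that of ABCC5 became smaller, at -0.132 (adjusted p = 0.424). The others did not, at -0.237 for ABCG2 (adjusted p = 0.0806), -0.267 for ABCG1 (adjusted p = 0.0672) and 0.256 for ABCD3 (adjusted p = 0.101).

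**Figure D5:**
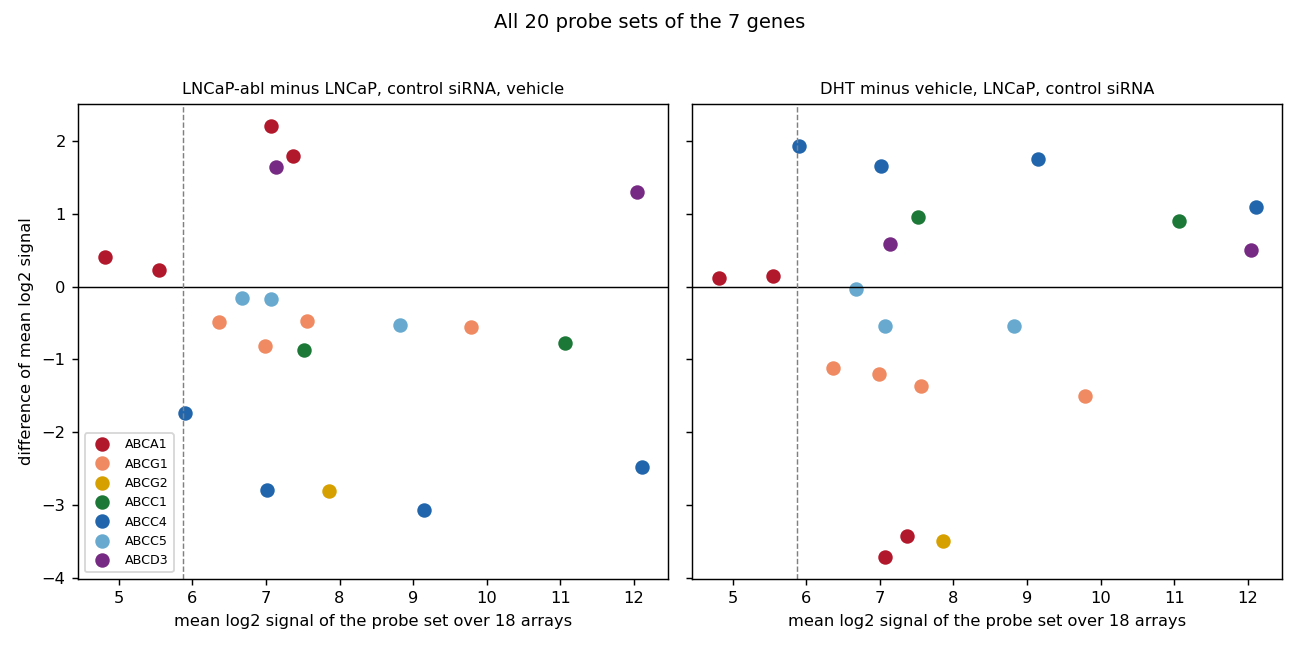
Difference of mean log2 signal of all 20 probe sets against their mean log2 signal over the 18 arrays, for LNCaP-abl minus LNCaP (left) and DHT minus vehicle (right), both with control siRNA. The dashed line is the table median of 5.88. Probe sets of a gene lie on the same side of 0 except the dim pair of ABCA1 in the DHT panel, and levels of different probe sets are not comparable.

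Other ABC genes were counted as well. Of 41 other family members listed, 20 were tested. With DHT and control siRNA 3 rose, 9 fell and 8 were not called (1 higher and 9 lower after quantile normalization). In that comparison 19.4% of all genes rose and 26.4% fell. The median difference was -0.16, against -0.036 over all genes. Among other lipid and drug transporters, ABCA12, a lipid transporter of skin, fell by 1.84 ± 0.12, to a mean of 4.74 that lies below the table median, and ABCC10, a drug exporter, fell by 0.43 ± 0.04. In LNCaP-abl against LNCaP with control siRNA 5 of the 20 were higher and 11 lower, where 29.1% of all genes were higher and 34.6% lower. ABCB6, a porphyrin transporter, differed there by -1.32 ± 0.04. After TRIM24 siRNA 8 of the 20 were higher in each setting, and 2, 1 and 2 lower in LNCaP-abl, LNCaP with DHT and LNCaP with vehicle. In these settings 16.7%, 19.4% and 20.5% of all genes were higher, and 28.8%, 20.8% and 18% lower. ABCC10 was higher in each, by 0.69 ± 0.04, 0.48 ± 0.04 and 0.27 ± 0.04.

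ABCA1 and ABCG1 were set beside other targets of the liver X receptors. Of 12 listed targets 9 were tested, and with DHT and control siRNA none rose and 3 fell, with a median of -0.10. In that comparison 19.4% of all genes rose and 26.4% fell. LPCAT3, a phospholipid acyltransferase, fell by 0.50 ± 0.05 and SREBF1, the regulator of fatty acid synthesis, fell by 0.27 ± 0.04, both far less than ABCA1. With TRIM24 siRNA LPCAT3 was higher by 0.86 ± 0.05 in LNCaP-abl, by 0.74 ± 0.05 in LNCaP with DHT and by 0.74 ± 0.05 with vehicle. SCD, the stearoyl-CoA desaturase on the same list, was lower with vehicle, at -0.91 ± 0.03, so the list did not move as a block. Of 9 listed receptors and partners 5 were tested, and the coactivator NCOA2 fell with DHT by 0.53 ± 0.04 while the receptor partner RXRB fell by 0.15 ± 0.05.

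Genes of cholesterol supply were set beside the sterol exporters. Of 15 listed targets of SREBP2, the sterol-sensing activator of cholesterol synthesis, 9 were tested. With DHT and control siRNA 6 of the 9 rose, none fell and 3 were not called, with a median of 0.41, where 19.4% of all genes rose (6 and 1 after quantile normalization). HMGCS1, which makes HMG-CoA, rose by 1.42 ± 0.06 and IDI1, the isopentenyl diphosphate isomerase, by 0.74 ± 0.03. In LNCaP-abl against LNCaP with control siRNA 4 of these 9 were higher and 4 lower, where 29.1% of all genes were higher and 34.6% lower. The sterol storage and transport genes showed no single direction with DHT and control siRNA. Of 11 tested 3 rose and 4 fell, where 19.4% of all genes rose and 26.4% fell. LIPA, the lysosomal cholesteryl ester hydrolase, was at -0.58 ± 0.03.

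For the drug and conjugate exporters ABCG2 and ABCC1, the NRF2 targets and the glutathione enzymes were counted. Of 9 NRF2 targets tested, 4 rose and 1 fell with DHT and control siRNA (4 and 2 after quantile normalization). Over all genes 19.4% rose and 26.4% fell in that comparison. GCLC, the catalytic subunit of glutamate-cysteine ligase, fell by 1.80 ± 0.03, and SLC7A11, the cystine importer, rose by 1.06 ± 0.07. Of 14 glutathione genes, all tested, 3 rose and 6 fell in the same comparison (4 each after median centring). They include GSR, the glutathione reductase, higher by 0.72 ± 0.07, and GSTK1, at -0.43 ± 0.04. Of 9 genes tested for the response to foreign compounds, 4 rose and 1 fell with DHT and control siRNA. TIPARP, a target of the aryl hydrocarbon receptor, was higher by 0.98 ± 0.06. With TRIM24 siRNA the balance was the other way in both lists. There DHT was followed by 1 rise and 4 falls among the 9 NRF2 targets. The 9 genes of the response to foreign compounds had 2 rises and 5 falls, where 16.9% of all genes rose and 26.6% fell.

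ABCC4 and ABCC5 were set beside genes that handle their substrates. Of 9 prostaglandin genes tested 4 rose with DHT and control siRNA and none fell, where 19.4% of all genes rose and 26.4% fell. The rises were led by HPGD, the enzyme that inactivates prostaglandins, at 2.36 ± 0.09, and the receptor PTGER4, at 1.56 ± 0.13. HPGD averaged 4.82 with vehicle, below the table median, so its rise is a low estimate. PTGER4 was lower in LNCaP-abl than in LNCaP, with a difference of -2.54 ± 0.13 and a mean of 4.86 there, again below that median. Of 8 phosphodiesterases tested, which break down cyclic nucleotides, 3 rose and 2 fell with DHT and control siRNA, against the same shares of all genes. PDE9A was higher by 1.15 ± 0.05 and PDE4D fell by 1.09 ± 0.06, and PDE10A in LNCaP-abl averaged 3.8, below the table median, against 10.0 in LNCaP, so its difference of -6.21 ± 0.17 is a low estimate too.

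Beside ABCD3, 11 of 14 listed genes of peroxisomal fatty acid oxidation were tested. With DHT and control siRNA 6 rose and 3 fell, where 19.4% of all genes rose and 26.4% fell. ACAA1, the peroxisomal thiolase, rose by 0.86 ± 0.04 and ECI2, an enoyl-CoA isomerase, by 0.65 ± 0.04. After TRIM24 siRNA none of the 11 was higher, and 5 were lower in LNCaP-abl, 6 in LNCaP with DHT and 6 with vehicle, where 28.8%, 20.8% and 18% of all genes were lower. ACSL1, which activates long-chain fatty acids, differed by -0.89 ± 0.06, -0.94 ± 0.06 and -1.09 ± 0.06, while ABCD3 itself was called higher in LNCaP with DHT. After quantile normalization 1 of the 11 was higher in LNCaP-abl. The peroxin genes that build the peroxisome had no single direction with DHT and control siRNA. Of 11 tested 4 were higher and 4 lower, where 19.4% of all genes rose and 26.4% fell.

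Genes with the most similar course over the 18 arrays were found by the root mean square difference of log2 values, each gene centred on its own mean. For ABCA1 they were AMIGO2, COL5A2 and OPRK1, at 0.3, 0.415 and 0.659, against the SD of 2.21 of ABCA1 itself. AMIGO2 is a neuronal adhesion protein. ABCG2 was nearest to BASP1, MAN1A1 and REG4, at 0.331, 0.468 and 0.588, and ABCC4 to PCGEM1, a prostate-specific long noncoding RNA, SOCS2 and LOC105371703, at 0.166, 0.184 and 0.202. ABCG1 was nearest to CTBP1, ATP2B1-AS1 and MACIR, ABCC1 to PITHD1, FHDC1 and TAOK3, ABCC5 to LZTS3, EPHA1 and PCK2, and ABCD3 to PDE7A, GPC6 and INSIG1, all at distances of 0.104 to 0.182. PCGEM1 differed by 0.88 with DHT and by -2.34 in LNCaP-abl against LNCaP. Nearness describes these 18 arrays only and was given no test.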

How the data were processed

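Total RNA of 18 one-colour Affymetrix arrays was measured in 6 groups of 3. The deposited log2 values were made by the authors with RMA, per the submitters' processing notes, and used without further scaling. RMA brings arrays to a common distribution, which hides any shift common to most transcripts. For the RMA version and the scan dates, nothing is given in the sources used here.

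The platform annotation gave 1 symbol to 41097 probe sets, several to 1801 and none to 11777, and the symbols of 41043 probe sets were found in a RefSeq gene table. Each of 19775 genes was read from its brightest probe set, and 13607 with a third-highest value of at least 5.88, the table median, were tested. A group-means model was fitted to all 18 arrays in limma 3.58.1 (R 4.3.3) with 12 residual degrees of freedom, two-sided tests and Benjamini-Hochberg adjustment over all genes tested in each of 9 comparisons, and genes were called at an adjusted p under 0.05. Probe sets were also tested alone, adjusted over all probe sets tested. The number of arrays limits the precision.

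Named genes were the 7 members, TRIM24, the 3 nearest genes of each member and up to 2 genes per list with the smallest adjusted p in the comparison described. Members, lists and motifs were chosen with earlier results of these data known. Promoter windows are from RefSeq (GRCh38.p14). Tested on simulated data for 13607 genes, the model recovered 49, 44 and 48 of 100 genes changed by 0.25 and 92, 92 and 89 of 100 changed by 0.5 in knockdown in LNCaP with vehicle, DHT with control siRNA and LNCaP-abl against LNCaP. Of 153, 147 and 146 calls there 12, 11 and 9 were false. Alternatives covered the filter, the choice of probe set, scaling, the arrays fitted, the variance model, array weights, a 3′ to 5′ covariate, a block for replicate number, and leaving out single arrays.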

Additional observations from a re-analysis of the deposited data

Results flagged for a closer look

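The effect of TRIM24 siRNA on ABCG1 was 0.41 log2 units higher in LNCaP-abl than in LNCaP with vehicle. It was singled out because the interaction term itself was called (limma adjusted p = 0.000604). ABCG1 was higher with TRIM24 siRNA on 3 of 3 arrays in LNCaP-abl, and the arrays of LNCaP with vehicle overlapped. The interaction of ABCG1 was called under each alternative that gives the gene a single value, from 0.297 to 0.464. When every probe set was tested alone, 2 of its 4 were called and 2 were not (0.21, adjusted p = 0.0755, and 0.20, adjusted p = 0.285). For the brightest probe set, without any single array it was 0.368 to 0.456.

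The effect of TRIM24 siRNA on ABCC5 was 0.34 log2 units higher in LNCaP-abl than in LNCaP with vehicle by the same kind of test (limma adjusted p = 0.0329). In LNCaP-abl its arrays overlapped between the siRNAs, and in LNCaP with vehicle all 3 knockdown arrays were lower. The other ABCC5 probe sets gave -0.24 and -0.10. The call was lost in 8 of 12 omissions of a single array, with adjusted p up to 0.0904, and was kept without the first control or the third TRIM24 siRNA array of LNCaP, or the second control or first TRIM24 siRNA array of LNCaP-abl.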

How the results depend on the processing

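Under settings other than the omission of an array, 706 member values kept direction and call, 17 gained a call, 13 lost one and 20 changed sign. All calls of DHT with either siRNA and of LNCaP-abl against LNCaP with control siRNA were kept under every setting and omission run. With the 3′ to 5′ covariate the members called fell to 2 for knockdown in LNCaP with vehicle and 1 for knockdown with DHT, and all genes called with DHT to 2669, against 5468. For the interaction of knockdown with DHT 1 member, ABCD3, was called, against 0, with the stricter filter, the mean of the probe sets, the most variable probe set, quantile normalization, the intensity trend and array weights. For the interaction with cell line 1 member remained called, ABCG1, without a filter, with the mean of the probe sets and with only the groups compared. Without 1 array, members called ranged over 2 to 3 for knockdown in LNCaP with vehicle, 0 to 1 for the interaction with DHT and 1 to 2 for that with cell line.

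Signs turned in 20 values, of which only the ABCC5 interaction with cell line had been called (-0.00037 with the mean of the probe sets). With that mean they were 0.048 (ABCG1) for knockdown with vehicle, 0.0664 (ABCC5) with DHT, -0.0512 (ABCC5) and -0.0554 (ABCD3) in LNCaP-abl, -0.127 (ABCA1) and 0.042 (ABCC4) for the interaction with DHT, and 0.107 (ABCC4) for that with cell line. With the most variable probe set they were -0.125 (ABCD3) in LNCaP-abl, -0.161 (ABCA1) for the interaction with DHT and -0.0178 (ABCC1) for that with cell line. Median centring gave 0.00252, -0.0254 and -0.028 for ABCD3 in knockdown with vehicle, LNCaP-abl and the interaction with cell line. Quantile normalization gave 0.0194 (ABCC4) and 0.00417 (ABCA1) for the interaction with cell line, and array weights gave 0.036 (ABCC4) there and -0.00242 (ABCD3) in LNCaP-abl. The covariate gave 0.0124 (ABCD3) with vehicle and 0.0614 (ABCC5) with DHT. Without 1 array, ABCD3 ranged from -0.0653 to 0.0393 with vehicle, from -0.00571 to 0.0414 in LNCaP-abl and from -0.0252 to 0.0794 for the interaction with cell line. ABCG2 with DHT ranged from -0.0753 to 0.042, and ABCC4 from -0.0913 to 0.00857 and from -0.0797 to 0.0264 for the interactions with DHT and with cell line. The causes were not tested.

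Replicate numbers did not pair the arrays, with correlations of same-numbered deviations between -0.3 and 0.2. The replicate block left the members called at 4 in knockdown with vehicle and changed 1 call, ABCC1 in knockdown with DHT (adjusted p = 0.049), which made 4 members there. Every probe set tested alone gave 8884, 9311 and 10554 calls for knockdown in LNCaP (vehicle, then DHT) and in LNCaP-abl, against 5237, 5468 and 6201, 10443 and 9942 for DHT with control and TRIM24 siRNA, against 6223 and 5922, 15342 and 16798 for LNCaP-abl against LNCaP, against 8675 and 9495, and 5933 for the interaction with cell line, against 3880. Without the filter the interaction with DHT had 993, against 1507. The ABCA1 signal with DHT lay below the table median, so the size of its fall is a low estimate.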
